A study of Homo sapiens with 20 samples.

Results

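HIF1A binding in A549 cells, an established line from a human lung adenocarcinoma, was compared between hypoxia and normoxia through the peak list of each condition. The hypoxia list held 5408 peaks and the normoxia list 526, together 5934 of the 26484 peaks in the 8 lists of the study, which covers 4 cancer cell lines. A hypoxia peak and a normoxia peak that shared at least 1 bp were counted as called in both, and every other peak as called in hypoxia only or in normoxia only. The cells were parental A549 grown in DMEM and kept for 24 h in normoxia or at 1% O2, with 2 replicates per condition and 1 input library of genomic DNA for the line. HIF1A chromatin was recovered with an antibody against the protein, and no genetic alteration was introduced. The title and cell line field of the input library name A549, and so does the input entry in the peak files, while its description names RKO and its source field HCT116. The authors merged the replicates before calling peaks, so no value below has a replicate error and no test between conditions was possible. Intervals cover the counting of tags or peaks only.

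HIF1A pairs with ARNT, its stable partner, to form a transcription factor whose activity follows the oxygen supply. With oxygen present, prolyl hydroxylases of the EGLN family mark HIF1A for destruction through VHL, and in hypoxia the protein accumulates. The dimer binds the hypoxia response element, and it is best known for driving genes of glucose uptake, glycolysis, mitophagy, pH control and blood vessel growth.

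The core of the hypoxia response element is ACGTG or GCGTG. The sequences below, from the GRCh37 reference, show the core nearest to the centre of strong peaks of each class, because the share of peaks with this core differed between the classes. Each is 30 bases long and reads 5′ to 3′ on the strand that carries the core, with that core in capitals. The first 4 are from peaks called in both conditions, the next 4 from peaks called in hypoxia only. The last 2 are the central 30 bases of the strongest normoxia-only peaks downstream of a gene, which held no core in the 200 bp at their centre.
SLC16A3 (chr17:80188984-80189013, minus strand): gggacgtgggggACGTGaccgcgccatggg
GPI (chr19:34850232-34850261, plus strand): cgtccatcccagACGTGcggacccgggtgt
ALDOA (chr16:30076870-30076899, minus strand): cacccccctcggACGTGactcggaccacat
LDHA (chr11:18416012-18416041, plus strand): agcccgactcacACGTGggttcccgcacgt
PPP1R3C (chr10:93393071-93393100, minus strand): gctgcatgcggtACGTGcctgcccggcccc
EGLN3 intron (chr14:34407693-34407722, plus strand): gctacgtgcgctGCGTGagggtggcagcca
PFKFB3 intron (chr10:6243603-6243632, plus strand): gggacgtgagcgACGTGtggcagcctctgc
ITGB3, distal (chr17:45307319-45307348, minus strand): ggaacgtgtcaaACGTGggcgtcctgttgg
ID1, past the gene end (chr20:30195321-30195350, plus strand): ttctgcctaaatgcattgtaggcatctctg
ID3, past the gene end (chr1:23883121-23883150, plus strand): atgaggattgaagtctgctattgctctgca

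The whole peak is shown for LDHA, called in both, and for PPP1R3C, called in hypoxia only, since both lay just upstream of the gene start. All cores on either strand are in capitals. LDHA had 3 in its 141 bp, and PPP1R3C had 1. CACGTG holds a core on each strand, and both were counted.
LDHA (chr11:18415958-18416098, plus strand): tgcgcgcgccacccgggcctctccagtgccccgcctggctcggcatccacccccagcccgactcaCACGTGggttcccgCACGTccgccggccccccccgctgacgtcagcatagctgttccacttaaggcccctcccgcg
PPP1R3C (chr10:93393008-93393148, plus strand): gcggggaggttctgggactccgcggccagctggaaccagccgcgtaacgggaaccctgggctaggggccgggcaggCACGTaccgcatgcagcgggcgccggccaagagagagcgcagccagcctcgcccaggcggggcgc

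The merged hypoxia library held 46569637 tags and the merged normoxia library 41242090, a ratio of 1.129. Of these tags 0.402% fell in peaks in hypoxia and 0.0369% in normoxia. Signal is given as the normalized tag count, the tags in a peak scaled to 10000000 tags in the library. The weakest peak held 11 tags in hypoxia and 12 in normoxia. Both lists required at least 13-fold over input and 3-fold over the surrounding 10000 bp, and the input filter removed 85.0% of the putative peaks in hypoxia and 89.6% in normoxia.

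The first question was how many binding sites the conditions shared. In hypoxia only, 5232 peaks were called, 96.7% of that list (95% Wilson interval 96.2 to 97.2%). Both lists held 176 peaks, which was 3.25% of the hypoxia list (2.81 to 3.76%) and 33.5% of the normoxia list (29.6 to 37.6%). In normoxia only, 350 peaks were called. The tightest case was a pair downstream of VMP1 on chromosome 17 that shared 1 position, and the next smallest overlap was 8 bp. Just outside the rule, a normoxia peak near FLNA, which encodes an actin cross-linker, lay 5 bp from a hypoxia peak, and one near the phosphatase gene DUSP1 lay 10 bp away.

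Peaks of both lists were the strong ones. Their median normalized tag count was 16.3 in hypoxia, with quartiles of 9.55 and 34.6, and 6.30 in normoxia, with quartiles of 4.36 and 13.1. Hypoxia-only peaks had a median of 3.87, which is 18 tags, and normoxia-only peaks one of 4.12, which is 17 tags. The upper quartile was 6.66 among hypoxia-only peaks and 4.61 among normoxia-only peaks. The median fold over the local region was 17.8 for hypoxia peaks called in both, 6.47 for hypoxia-only and 6.06 for normoxia-only peaks. No input tag was present at 28.1% of hypoxia-only, 28.9% of normoxia-only and 18.8% of shared hypoxia peaks.

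**Figure D1:**
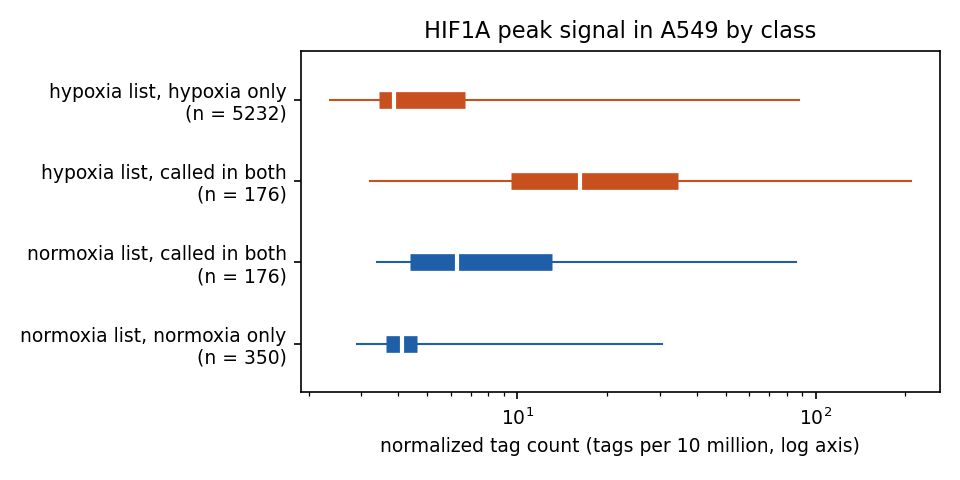
Normalized tag count (tags in the peak per 10000000 in the library, log axis) of A549 HIF1A peaks by list and class; thin lines span the lowest to the highest peak, thick bars the quartiles, and the white mark is the median. Peaks called in both sit at a median of 16.3 in hypoxia and 6.30 in normoxia, while the hypoxia-only and normoxia-only medians are 3.87 and 4.12.

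Whether a hypoxia peak was also called in normoxia followed its strength, which the calling limits partly fix. The weakest normoxia peak had 2.91, so a weak hypoxia peak with a lower normoxia signal could not be called in both. All 10 of the strongest hypoxia peaks were called in normoxia, 16 of the next 40 (40.0%, 26.3 to 55.4%) and 14 of the next 50 (28.0%, 17.5 to 41.7%). The share was 12.5% at ranks 101 to 500, 8.60% at ranks 501 to 1000 and 3.50% at ranks 1001 to 2000. Below rank 2000 it was 8 of 3408 peaks, or 0.235%. The core fell later along the same order. It stood in 40 of 40 peaks at ranks 11 to 50, in 92.5% at ranks 101 to 500, in 76.5% at ranks 1001 to 2000 and in 33.8% below, where the normalized tag count was at most 4.72. Of the first 10 peaks 70.0% lay within 2500 bp of a gene start, and of those below rank 2000 it was 19.9%.

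**Figure D2:**
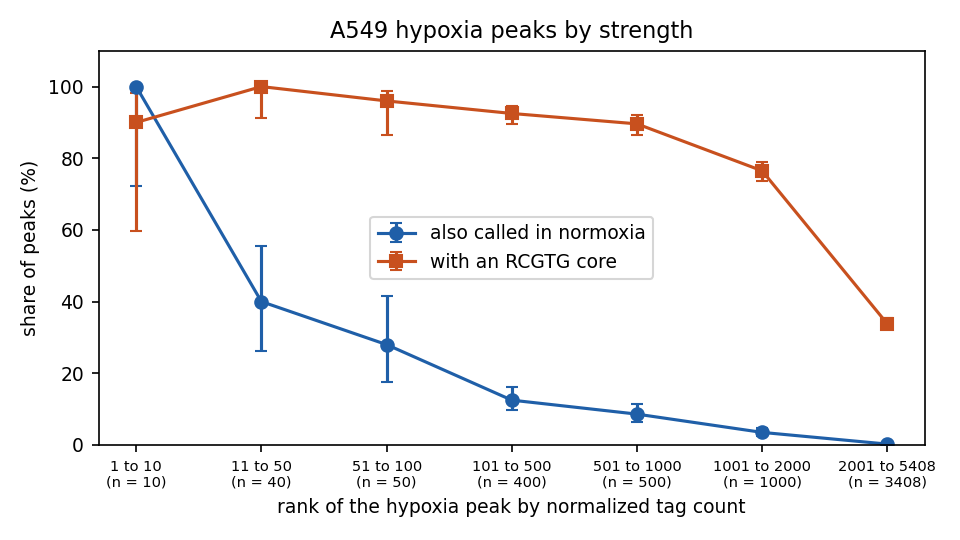
Share of A549 hypoxia peaks (%) that were also called in normoxia (circles) and that held an RCGTG core, with R for A or G, in the central 200 bp (squares), by rank of the normalized tag count; bars are 95% Wilson intervals. The share called in normoxia falls from 100.0% in the first bin to 0.235% in the last, a fall that the calling limits partly fix. The share with a core stays at or above 89.6% up to rank 1000.

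Among the peaks called in both, the strongest in hypoxia lay inside SLC16A3, which encodes the lactate exporter MCT4, at chr17:80188927-80189067 in a noncoding exon. Its normalized tag count was 208.5 in hypoxia and 42.4 in normoxia, a ratio of 4.92 (95% exact conditional binomial interval 4.18 to 5.81). The peak beside GPI, which encodes the second enzyme of glycolysis, had 199.1 and 48.0, a ratio of 4.15 (3.55 to 4.86), and held 7 cores in its central 200 bp. At RRP12, whose start lies beside that of the glycolytic enzyme gene PGAM1, the values were 126.7 and 28.4, a ratio of 4.46 (3.66 to 5.49). These strong sites were already among the strongest of the normoxia list, where SLC16A3 ranked 7, GPI 6 and RRP12 13.

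BNIP3L, which encodes a mitophagy receptor, had 108.7 in hypoxia and 28.4 in normoxia. ALDOA, which encodes the aldolase of glycolysis, had 91.3 and 23.8, and LDHA, which encodes a subunit of lactate dehydrogenase, had 90.8 and 20.4. The ratios of these 3 peaks lay between 3.83 and 4.45. The other peaks among the 10 strongest shared ones had smaller ratios. NARF, which encodes a protein that binds prelamin A and was first in the normoxia list, had 156.8 and 85.8, a ratio of 1.83 (1.61 to 2.08), and a peak in an intron of FAM174B had 130.3 and 75.4, a ratio of 1.73 (1.51 to 1.99).

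A pair of shared peaks stood downstream of VMP1, which encodes a protein of autophagosome formation. The one at chr17:57921031-57921171, 1485 bp past the end of that gene, had 134.4 in hypoxia and 80.7 in normoxia, a ratio of 1.67 (1.46 to 1.91). The one at chr17:57921529-57921669 had 97.3 and 78.3, a ratio of 1.24 (1.07 to 1.44), and no core. Both had low focus ratios, the share of tags on the side of the centre where the strand predicts them, at 0.558 and 0.568 against a median of 0.818 over the hypoxia peaks called in both. Their signal was 7.49-fold and 5.33-fold over the local region, against 72.5-fold at SLC16A3.

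Over the 176 shared peaks the median ratio of hypoxia to normoxia was 2.41 (95% order-statistic interval 2.06 to 2.80), with quartiles of 1.53 and 3.74. The signal was higher in hypoxia at 162 peaks, equal at 1 and lower at 13. At least 2-fold higher in hypoxia were 107 peaks, 60.8% of those compared, and at least 2-fold lower were 2, or 1.14%. A pair needed a call in both lists, so sites that fell below the limits in either condition were left out. The pairs had a normoxia median of 6.30, and their weakest hypoxia peak had 3.22, so many 2-fold falls could not be seen. This selection bears on the median ratio and on both counts. The counting interval of the ratio lay above 1 at 130 peaks and below 1 at 4. Of these 4, 3 lay on chromosome Y, far from any gene, among them both peaks that were at least 2-fold lower.

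**Figure D3:**
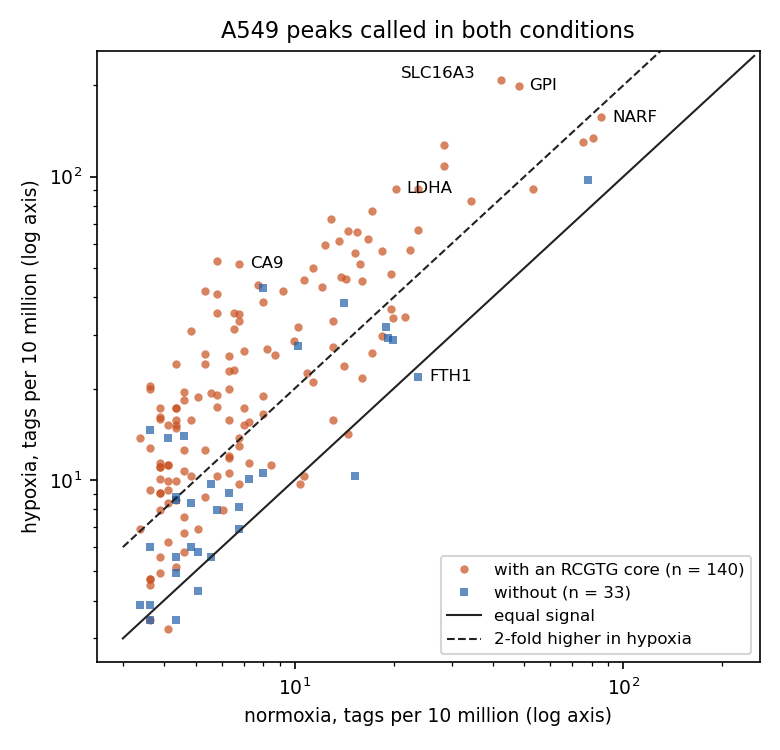
Normalized tag count (tags in the peak per 10000000 in the library, log axes) in normoxia and hypoxia at 173 of the 176 peaks called in both; the 3 peaks on chromosome Y are left out, the solid line marks equal signal and the dashed line 2-fold higher in hypoxia. Peaks with an RCGTG core in the central 200 bp (circles, n = 140) have a median ratio of 2.81, and those without (squares, n = 33) one of 1.37.

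Shared peaks with a core had a median ratio of 2.81 (2.40 to 3.26, n = 140), and 100 of them were at least 2-fold higher in hypoxia. Shared peaks without a core had one of 1.30 (1.13 to 1.65, n = 36), and 7 were at least 2-fold higher. Without the peaks on chromosome Y the latter median was 1.37 (1.14 to 1.68, n = 33). Shared peaks that were also in the hypoxia list of another line had a median ratio of 3.04 (2.60 to 3.66, n = 106), and the others one of 1.64 (1.39 to 2.02, n = 70). Within 2500 bp of a gene start the median was 2.91 (n = 74), and farther away it was 2.09 (n = 102), with intervals of 2.36 to 3.51 and 1.77 to 2.55. Strength in normoxia made little difference to the median ratio. It was 2.49 (1.71 to 3.26) at the 50 strongest normoxia peaks of the pairs and 2.35 (2.05 to 2.84) at the other 126.

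The highest ratio was 9.04 (5.94 to 14.4), at an intergenic peak on chromosome 16 with 52.6 in hypoxia and 5.82 in normoxia. Its nearest protein-coding start was that of MAF, a transcription factor gene, 426648 bp away. TOP3A, which encodes a DNA topoisomerase, followed at 7.86 (5.04 to 12.8), with 41.9 and 5.33. CA9, which encodes the carbonic anhydrase of the cell surface that serves pH control in hypoxia, had 51.5 and 6.79, a ratio of 7.58 (5.12 to 11.7). SAP30, which encodes a subunit of a histone deacetylase complex, had a ratio of 7.04 (4.60 to 11.3). A peak in an intron of MOB3A, 9132 bp from the start of IZUMO4, had one of 6.37 (3.98 to 10.8). These 5 had a normalized tag count of at most 6.79 in normoxia, and all 5 held a core.

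Below the 3 peaks on chromosome Y, the lowest ratio was 0.673 (0.454 to 0.998), at a peak on chromosome 21, 195708 bp from the start of TPTE, with 10.3 in hypoxia and 15.3 in normoxia. An intron peak of RARS2 followed at 0.782, with an interval of 0.363 to 1.66 that held 1. A peak without a core in a coding exon of BEST1 lay 4520 bp from the start of FTH1, the ferritin heavy chain gene. It had 21.9 in hypoxia and 23.8 in normoxia, a ratio of 0.920 (0.692 to 1.23), and a focus ratio of 0.561 in hypoxia. TFRC, which encodes the transferrin receptor, had 15.7 and 13.1, a ratio of 1.2 (0.831 to 1.73). At the FTH1 and TFRC peaks the counting interval held 1.

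The second question was which sites were called in hypoxia only. The 10 strongest ran from 64.2 to 87.8, and all 10 held a core. The first lay in an intron of FBXO16, 9358 bp from the start of ZNF395, which encodes a transcriptional repressor, with 87.8. PDK1, which encodes a kinase that keeps pyruvate out of the mitochondria, had 83.5 at chr2:173420736-173420876, in an annotated UTR 705 bp from its start. A peak 138 bp upstream of the lncRNA TSPAN14-AS1 on chromosome 10 also had 83.5. For each of these 3 the nearest normoxia peak lay more than 100 kb away.

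A peak 73657 bp from the start of NDRG1, a stress-response gene, had 80.3, and so did a peak in an intron of EGLN3, which encodes one of the prolyl hydroxylases that act on HIF1A. A peak 23866 bp from the start of the integrin gene ITGB3 had 76.7. An intron peak of PFKFB3, which encodes an enzyme that raises the allosteric activator of phosphofructokinase, had 76.2. PPP1R3C, which encodes a glycogen-targeting subunit of protein phosphatase 1, had 73.4 at a peak 250 bp upstream of its start. ALKBH5, which encodes an RNA demethylase, had 73.0 with the peak centre 22 bp upstream of the start. PLOD2, which encodes a collagen lysyl hydroxylase, had 64.2, and alone among the 10 was not in a hypoxia list of the other lines.

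Many hypoxia-only peaks stood close to the 13-fold limit over input that both lists required. Their median was 18.8-fold, and 1676 of 5232 (32.0%) had at least 26-fold, which is 2 times the limit. Among all hypoxia peaks with at least 26-fold, 1816 in number, 140 were called in normoxia, or 7.71%. PDK1 had 43.5-fold over input, 3.34 times the limit, and the other 9 of the strongest hypoxia-only peaks lay between 1.84 and 3.92 times the limit. The signal in normoxia at these positions was not measured here, because the lists hold called peaks only.

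The third question was which sites were called in normoxia only. The 10 strongest ran from 16 to 30.6, and 1 of them held a core. An intron peak shared by TEX14 and IGBP1C had 30.6, at 14.1-fold over input. ID1 and ID3, which encode inhibitors of helix-loop-helix transcription factors, had 30.6 and 28.9 at peaks 1018 bp and 1281 bp past the end of the gene. A peak 231 bp past the end of GYS1, and 2590 bp from the start of the ferritin light chain gene FTL, had 28.4. The others were near TNS4 (22.8), IER3 (20.1, in its antisense transcript IER3-AS1), TMEM107 (19.2), TPM1 (18.7) and KRT86 (16), and in IGFL2-AS1 (16). The peak in IER3-AS1 also lay 41 bp from the start of FLOT1.

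Most of these strongest peaks were apart from a hypoxia peak by a short gap. The gap was 18 bp at ID1, where the hypoxia peak had 30.5 against 30.6 in normoxia. It was 189 bp at ID3, where the hypoxia peak had 29.2 against 28.9. At TNS4 the gap was 273 bp and the hypoxia peak had 29, and at TPM1 it was 248 bp and 34.1. In all, 8 of the 10 had a hypoxia peak within 1000 bp, and the exceptions were the TEX14 intron and the site between GYS1 and FTL.

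Among all 350 normoxia-only peaks, 24 (6.86%) had a hypoxia peak within 1000 bp. The other 326 had a median of 4, and 275 of them were below 5. A core stood in 22.7% of the 326 (18.5 to 27.5%). The focus ratio was under 0.6 at 9.71% of normoxia-only peaks (7.04 to 13.3%), 4.3% of hypoxia-only peaks (3.78 to 4.88%) and 3.98% of shared hypoxia peaks. Among the strongest 50 of the normoxia-only class it was under 0.6 at 18, and among the strongest 50 of the hypoxia-only class at 0.

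Many of the stronger normoxia-only peaks stood just past the end of a gene, a measure chosen after the peaks had been seen. Within 2000 bp downstream of the 3′ end of a protein-coding gene lay 21 of the 50 strongest, against 4 of the 50 strongest hypoxia-only and 3 of the 50 strongest shared peaks by hypoxia signal. Of the 50 strongest shared peaks by normoxia signal it was 6. Over the whole classes the shares were 11.7% in normoxia only (8.75 to 15.5%), 4.74% in hypoxia only (4.20 to 5.35%) and 10.2% in both (6.57 to 15.6%). Whether these peaks carry HIF1A was not tested.

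The classes also differed in where they lay. Within 2500 bp of a gene start were 42.0% of shared peaks (35.0 to 49.4%), 28.5% of hypoxia-only peaks (27.3 to 29.8%) and 16.3% of normoxia-only peaks (12.8 to 20.5%). The median distance to the nearest start was 5438 bp, 12689 bp and 18024 bp. Introns held 41.5% of shared, 51.9% of hypoxia-only and 48.3% of normoxia-only peaks, and 35.2%, 32.0% and 37.4% were intergenic. UTRs held 10.2%, 7.22% and 6%, and coding exons 5.68%, 3.54% and 2.29%. The median GC content of the central 200 bp was 56.5% at shared hypoxia peaks, 50.0% at hypoxia-only and 45.0% at normoxia-only peaks, and in windows 2000 bp to either side it was 44.5%, 43.8% and 44.6%.

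ACGTG or GCGTG, on either strand, stood in the central 200 bp of 79.5% of shared hypoxia peaks (73.0 to 84.8%), 51.5% of hypoxia-only peaks (50.1 to 52.8%) and 23.4% of normoxia-only peaks (19.3 to 28.1%). Windows of the same length 2000 bp away had it in 24.1%, 21.7% and 23.3%, and those at the starts of 38878 genes in 36.6%. Normoxia-only peaks thus held the core as often as their flanks within the counting interval. ACGAG or GCGAG, a control of the same base composition apart from the fourth base, stood in 37.5%, 26.7% and 17.7%, with 18.2%, 15.8% and 16.4% in the flanks and 39.3% at gene starts.

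Of the core's forms, ACGTG differed more between the classes. It stood in 72.2% of shared, 37.2% of hypoxia-only and 10.9% of normoxia-only peaks, with 10.2%, 9.21% and 10.7% in the flanks and 14.9% at gene starts. GCGTG stood in 34.1%, 26.3% and 15.1%, with 15.1%, 14.3% and 14.7% in the flanks and 26.6% at gene starts. The core nearest to the centre was ACGTG preceded by T, giving TACGTG as at PPP1R3C, in 43.6% of the 140 shared peaks with a core. The share was 23.9% of the 2692 hypoxia-only and 8.54% of the 82 normoxia-only peaks with one. TGCGTG, the other form preceded by T, was nearest in 5.00%, 11.7% and 14.6% of the same peaks. The median distance from the centre to the nearest core was 13 bp, 20 bp and 37.5 bp in these peaks. At SLC16A3, shown above, it was 2 bp, and at LDHA 2 bp. A core lay within 25 bp of the centre in 58.5% of shared, 30.1% of hypoxia-only and 6.86% of normoxia-only peaks.

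TGANTCA, the site of the AP-1 family of transcription factors, stood in 17.6% of shared, 16.5% of hypoxia-only and 10.3% of normoxia-only peaks. In their flanks it stood in 8.24%, 6.16% and 5.43%, and at gene starts in 5.32%. GGGCGG, the GC box bound by SP factors, stood in 30.1%, 18.1% and 7.14%, with 5.97%, 5.62% and 5.29% in the flanks and 33.0% at gene starts. CCAAT, TTGCNNAA and CACAG stood in the hypoxia-only peaks in 22.1%, 10.0% and 48.5%, against 24.6%, 10.2% and 45.0% in their flanks. A match is a description of the sequence and not a measured binding site.

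**Figure D4:**
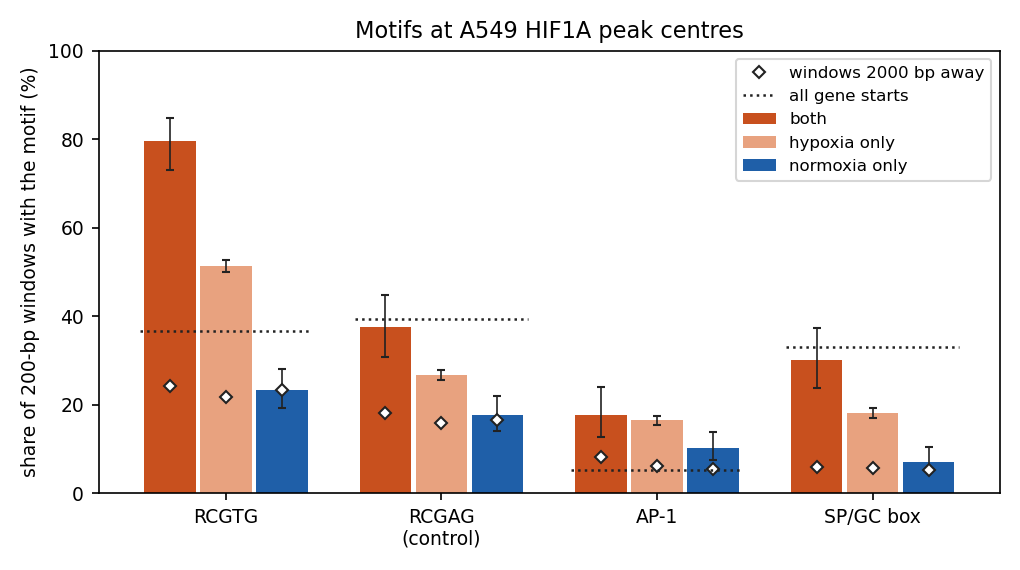
Share of 200-bp windows (%) at the centre of A549 peaks of each class that hold each motif on either strand; bars carry 95% Wilson intervals, diamonds are the windows 2000 bp to either side and dotted lines the windows at all gene starts. RCGTG (ACGTG or GCGTG) reaches 79.5% in peaks called in both, 51.5% in hypoxia only and 23.4% in normoxia only, where the flanks are at 23.3%.

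The gene-level view asked which pathways had a peak near a gene start. Of 20176 protein-coding genes, 1415 (7.01%) had a hypoxia peak centre within 2500 bp of the start and 123 (0.61%) a normoxia peak, and 87 had both. Across the 9 lists of genes tied to hypoxia, 43 of 105 genes had a hypoxia peak, 40 of them with a core, and 16 had a normoxia peak. The lists were drawn up with earlier results of these data known, so their counts are not independent evidence.

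Of 21 genes of glucose uptake and glycolysis, 13 had a hypoxia peak and 7 a normoxia peak, all 7 among the 13. Beside GPI, PGAM1, ALDOA and LDHA, the enolase gene ENO1 had 72.2 in hypoxia and 12.9 in normoxia, a ratio of 5.60 (4.19 to 7.65). The pyruvate kinase gene PKM had 25.8 and 8.73, a ratio of 2.96 (2.02 to 4.41). GAPDH, which encodes a dehydrogenase of glycolysis, had 3 hypoxia peaks, with 46.0 as the highest, and the 1 that was also called in normoxia had 31.8 and 10.2. The second aldolase ALDOC (32.2), the second enolase ENO2 (30.3), the triose-phosphate isomerase TPI1 (30.1), the hexokinase HK2 (10.1), PFKL (5.15) and PFKFB4 (3.65) had a peak in hypoxia only. SLC2A1, which encodes the glucose transporter GLUT1, had its nearest hypoxia peak 3921 bp from the start, with 24.5. PFKP had one 2751 bp away, with 10.3, and SLC2A3, HK1, PFKM, PFKFB3, PGK1 and SLC16A3 had none within 2500 bp of the single start used for each gene. An intron of SLC2A3, 48184 bp from that start, held a strong shared peak. It had 76.9 in hypoxia and 17.2 in normoxia, a ratio of 4.47 (3.45 to 5.84). With every annotated transcript start the count was 19 of 21, PGK1 (35.2) and SLC16A3 included. The share of all genes under that wider rule is not given here. This count and those below by the same rule therefore cannot be set against the 7.01%. Under that rule the strongest peak of PFKFB4 had 49.4 and that of PKM 62.3, both in hypoxia only.

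Of 11 genes of mitochondrial switches and mitophagy, 5 had a hypoxia peak, against 7.01% of all genes. BNIP3, which encodes a mitophagy receptor, had 59.3 in hypoxia and 12.4 in normoxia, a ratio of 4.78 (3.54 to 6.60), at chr10:133795488-133795628, and held 6 cores. BNIP3L had the values given above. PDK1 (83.5), the mitochondrial protease gene LONP1 (19.5) and PDK3 (12) had a peak in hypoxia only. PDK2, PDK4, COX4I2, NDUFA4L2, HIGD1A and FUNDC1 had none.

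Of 10 genes of oxygen sensing and HIF subunits, EGLN1 was the 1 with a peak. It encodes the main prolyl hydroxylase that acts on HIF1A, and had 46.0 in hypoxia and 14.3 in normoxia, a ratio of 3.22 (2.40 to 4.36). EGLN2, EGLN3, HIF1AN, VHL, HIF1A, EPAS1, HIF3A, ARNT and ARNT2 had none, although an EGLN3 intron held the strong site described above. At 1 of 10, the count lies near the 7.01% of all genes.

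Histone demethylases, enzymes that also use oxygen, had a hypoxia peak at 4 of 12 genes. KDM3A had 61.2 in hypoxia and 13.6 in normoxia, a ratio of 4.50 (3.37 to 6.12). KDM4B (40.2), KDM2A (13.3) and KDM5A (5.80) had one in hypoxia only, and the last 2 held no core. KDM2B, KDM3B, KDM4A, KDM4C, KDM5B, KDM5C, KDM6A and KDM6B had none. With every annotated transcript start the count was 6 of 12, KDM4C (33.7) and KDM5B (3.22) included. Of 11 genes of collagen hydroxylases and lysyl oxidases 4 had one, against the same 7.01%. P4HA1, which encodes a subunit of collagen prolyl hydroxylase, had 65.5 and 15.5, a ratio of 4.23 (3.21 to 5.62). PLOD2 (64.2), PLOD3 (15.5) and LOX (3.22) had one in hypoxia only, and P4HA2, P4HA3, PLOD1, LOXL1, LOXL2, LOXL3 and LOXL4 had none. Under the wider rule this count was 5 of 11, P4HA2 (30.7) included.

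Secreted and angiogenic factors had a hypoxia peak at 4 of 12 genes, against 7.01% of all genes. A normoxia peak stood at 0 of 12, which lies near the 0.61% of all genes. STC2, which encodes a stanniocalcin, had 48.7 and STC1 21.5. ANGPTL4 had 9.23 and VEGFA, the vascular growth factor, had 4.94. ADM, EPO, EDN1, PDGFB, TGFA, IGFBP3, ANGPT2 and PGF had none, and the nearest peak to ADM was 2889 bp away with 44.2. Of 5 genes of pH regulation, CA9 and CA12 (10.3, hypoxia only) had one, and SLC4A4, SLC4A7 and SLC16A1 had none.

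Of 10 genes of glycogen metabolism, 5 had a hypoxia peak, against 7.01% of all genes. In normoxia 0 of 10 had one, which lies near the 0.61% of all genes. PPP1R3C had 73.4, the branching enzyme GBE1 52.6, PPP1R3E 35.2, the glycogen synthase GYS1 21.3 and UGP2 10.5. All 5 held a core. PGM1, PYGL, PYGB, GYG1 and PPP1R3B had none. With every annotated transcript start the hypoxia count was 6 of 10, GYG1 (3.01) included.

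Among 13 repressors and growth control genes, 5 had a hypoxia peak, against 7.01% of all genes. ANKRD37 had 47.9 in hypoxia and 19.6 in normoxia, a ratio of 2.44 (1.88 to 3.18). DDIT4, which encodes an inhibitor of mTORC1, had 33.3 and 13.1, a ratio of 2.54 (1.85 to 3.53), and a second shared peak farther off had 66.4 and 14.5, a ratio of 4.58. BHLHE40 (26.2), FOXO3 (12.5) and ZNF395 (10.1) had one in hypoxia only. MXI1, which encodes an antagonist of MYC, fell on the limit, with a normoxia peak of 3.64 at 2484 bp and the overlapping hypoxia peak of 20.4 at 2503 bp. BHLHE41, MXD1, NDRG1, TSC22D3, SESN2, CITED2 and ERO1A had none. With every annotated transcript start the hypoxia count was 7 of 13, MXI1 (20.4) and TSC22D3 (2.79) included.

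The 3 comparison lists were read in the same way. Of 19 targets of NRF2, the regulator of antioxidant genes, 0 had a peak in either condition within 2500 bp, although FTH1 and FTL had the shared and the normoxia-only site given above at 4520 and 2590 bp. The 19 were NQO1, HMOX1, GCLC, GCLM, TXNRD1, SRXN1, SLC7A11, PGD, TALDO1, TKT, ME1, AKR1B10, AKR1C1, AKR1C2, AKR1C3, ABCC2, OSGIN1, FTL and FTH1. Of 11 immediate-early and AP-1 genes 5 had a hypoxia peak, namely IER3 (36.3), JUNB (12), IER2 (7.30), ATF3 (4.29) and EGR1 (3.65), and FOS, FOSB, FOSL1, FOSL2, JUN and JUND had none. IER3, ATF3 and EGR1 held no core, and IER3 had 20.1 in normoxia at a separate peak 104 bp away. The hypoxia peak counted for IER3 lay 2022 bp from its start and 206 bp from the start of FLOT1. Of 19 ribosomal protein genes 1, RPL3 (20.2), had a hypoxia peak and 0 a normoxia peak. The counts of the NRF2 and ribosomal lists lie near the 7.01% of all genes with a hypoxia peak and the 0.61% with a normoxia peak. The immediate-early and AP-1 list was at 45.5% in hypoxia (21.3 to 72.0%), above the 7.01%. The list of mitochondrial switches and mitophagy had the same share.

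**Figure D5:**
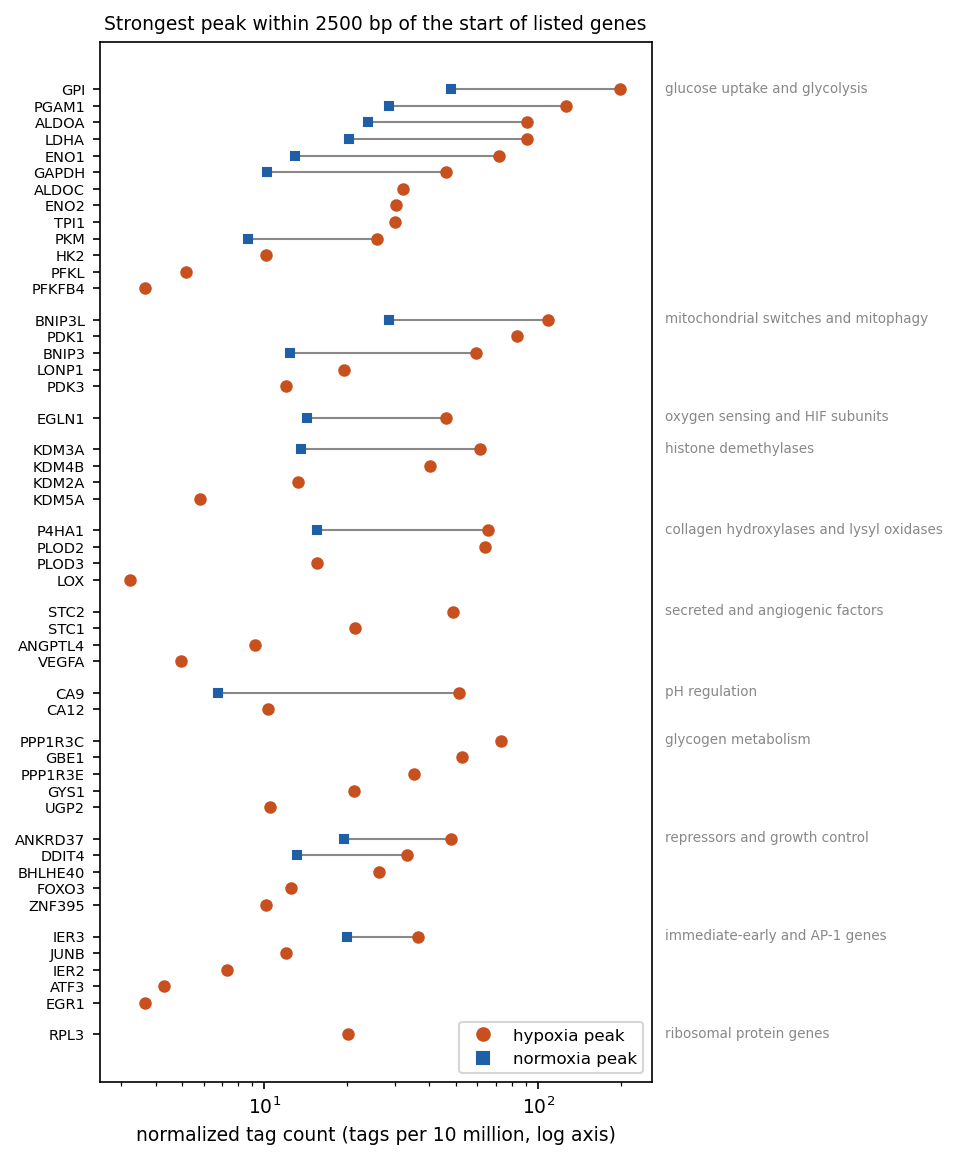
Normalized tag count (tags in the peak per 10000000 in the library, log axis) of the strongest peak within 2500 bp of the start of each listed gene, for the 49 genes with a hypoxia peak; circles are hypoxia and squares normoxia, and a line joins the values of 1 gene. The 16 genes with a normoxia peak all lie higher in hypoxia, and at GAPDH and IER3 the joined values belong to separate peaks.

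Hypoxia peaks gathered in some stretches of 100 kb. Several stretches held 6 peaks each. At chr10:6243543-6341468, from PFKFB3 into the lncRNA LINC02649, 5 of 6 held a core and the signal ran from 3.01 to 76.2. At chr1:859125-955152, which runs from SAMD11 to AGRN, 5 of 6 held a core but the signal reached only 14. Another 3 stretches of 6, around DDIT4, around KCTD11 and EIF5A, and in a histone gene cluster with H2BC10 and H4C8, tied with these.

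The classes were also compared with the peak lists of HCT116, RKO and H460. Of shared peaks, 45.5% overlapped a HCT116 hypoxia peak (38.3 to 52.8%), 35.2% a RKO hypoxia peak (28.6 to 42.5%) and 44.3% a H460 hypoxia peak (37.2 to 51.7%). For hypoxia-only peaks the shares were 10.5%, 8.70% and 12.6%, and for normoxia-only peaks 2.00%, 2.29% and 3.14%. At least 1 of the 3 other hypoxia lists held 60.2% of shared, 19.3% of hypoxia-only and 6.29% of normoxia-only peaks. This share followed strength as well, from 90.0% among the 10 strongest hypoxia peaks to 3.99% below rank 2000. The normoxia lists of the other lines held between 2.84% and 5.68% of shared peaks and between 0.286% and 0.857% of normoxia-only peaks. The lists were called at a different fold over input in each line, which the authors set from signal at common peaks. It was 7 for HCT116, 6 for RKO and 14 for H460, against 13 for A549.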

How the data were processed

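Per the labels and the methods of the study, the authors aligned the reads to GRCh37 with Bowtie2 2.2.9, filtered them with SAMtools, marked duplicates with Picard, merged the replicates and called peaks with HOMER 4.3 against the input. The deposited signal is the normalized tag count, the tags in a peak per 10000000 tags in the library. The deposited fold over input and fold over the local region are linear ratios, and the deposited focus ratio is a fraction. Where no input tag was present the files hold 0.5. The scaling removes depth but not differences in antibody recovery.

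Here tags were rebuilt from the normalized tag count and the library total. End positions were counted as part of a peak. Ratios carry exact conditional binomial intervals, shares Wilson and medians order-statistic intervals, at 95%, for counting error only. Gene starts and features came from GENCODE 44 on GRCh37, with 1 start per gene. Every peak lay within its chromosome. Motifs were searched with Python 3.11.15 on both strands, and the overlap, motif and interval code was tested on simulated data.

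Peaks named were the 10 strongest of each class, the 5 highest and 5 lowest ratios, listed genes with and without a peak within 2500 bp, and dense stretches of 100 kb. Some items are not reported here, and the gene lists are counted without them. FLNA, DUSP1, TFRC, FTH1 and the peaks 3′ of genes were chosen after their values were seen. The peaks, lists and tests were chosen with earlier results of these data known.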

Additional observations from a re-analysis of the deposited data

How the results depend on the processing

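No paired analysis was possible because the authors merged the replicates before calling peaks, and leaving out a replicate could not be run for the same reason. Of 74 recomputed values, 48 stayed within 1.5 times the count or within the interval given. At least 20-fold over input left 2477 hypoxia-only, 79 shared and 141 normoxia-only peaks, and a local fold of at least 6 left 3043 hypoxia-only and 185 normoxia-only peaks, both by keeping fewer peaks. Counting peaks that only abut as apart, chosen after seeing the data, gave 175 shared peaks. The median ratio lay between 2.27 and 2.54 under its alternatives. A fold of 3 left 67 shared peaks higher and 0 lower in hypoxia. Near a gene start, in the order shared, hypoxia only and normoxia only, the shares were 33.5%, 21.9% and 11.4% at 1000 bp, 48.9%, 35.1% and 28.0% at 5000 bp, and 54.0%, 38.9% and 23.4% with every transcript start. The core stood in 69.9%, 40.8% and 15.1% of central 100-bp windows, against 13.4%, 11.6% and 11.9% in flanks of that length, and in 75%, 46.5% and 19.1% of peaks as called. The order of the classes was the same under each of these settings. NRF2 targets with a hypoxia peak became 3 at 10000 bp and 4 with every transcript start, and ribosomal protein genes 3 and 2. The share of all genes under these 2 rules is not given here. The share past a gene end, measured to 5000 bp, was 14.2%, 8.52% and 16.3%. Peaks of 11 to 20 tags carry wide counting error, and most hypoxia-only and normoxia-only peaks were of that size.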
